A study of Mus musculus with 38 samples.

Results

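The genes described here are 10 markers of intraepithelial lymphocytes: Ptprc, Cd3d, Cd3e, Cd3g, Cd8a, Itgae, Gzma, Gzmb, Cd7 and Ccl5. They were taken by name from the gene names in the deposited count files, where each name has 1 row, so 10 of the 46078 gene rows were used. RNA sequencing was done on epithelial cells isolated from the intestine of mice, untreated or in colitis caused by dextran sodium sulfate (DSS), a polymer that injures the gut lining when given in drinking water. All mice were C57BL/6 and carried floxed Hk2 alleles. In the KO groups (Hk2∆IEC), Cre recombinase under the Villin promoter, which is active in intestinal epithelial cells, deletes Hk2, the gene of hexokinase 2. The WT groups were littermates with floxed Hk2. DSS mice were males of 10 to 12 weeks on 1.5% DSS, with both genotypes housed together. For untreated phenotyping the labels give ages of 9 to 11 and of 86 to 92 weeks, without saying which applied on day 0. Untreated mice (day 0) gave 4 WT and 5 KO libraries, 3 days of DSS gave 7 WT and 8 KO libraries, and 7 days gave 7 of each genotype, with 1 library for each animal number. The labels of the samples name no gut segment, and the text of the series speaks of colon.

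Intraepithelial lymphocytes are mostly T cells that live between the epithelial cells of the gut, so that a preparation of epithelium carries some of them along. Many bear CD8 as a pair of alpha chains rather than as the alpha and beta chains of circulating killer T cells, and many carry a γδ instead of an αβ T cell receptor. Integrin αE, made from Itgae, holds them to E-cadherin of their epithelial neighbours, and their granules hold granzymes for killing injured cells. None of these genes is a defining gene of the epithelial cell itself.

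The libraries held 10.5 to 60.6 M (mega) counts each. The epithelial list (Epcam, Krt8, Krt18, Krt20, Vil1 and Cdx2) summed to between 6449 and 11794 CPM (counts per M counts of the library, scaled by TMM throughout) in the 38 libraries, against 10.8 to 283 CPM for the 10 lymphocyte genes together. Hk2 was 33.1 to 118 CPM in the KO and 254 to 449 CPM in the WT libraries of day 0. On day 3, 7 of the 8 KO libraries had 68.4 to 128 CPM, but the library labelled d3_KO_345 had 435 CPM, above every WT library of that day (97.0 to 221 CPM), and so goes against its label. On day 7, the KO libraries had 56.1 to 268 CPM and the WT libraries 228 to 611 CPM. Of the other DSS libraries, d3_KO_349, d3_KO_350 and d3_KO_388 (120, 124 and 128 CPM) lay within the WT range of day 3. The library d3_WT_346 (97.0 CPM) lay within the range of those 7 KO libraries. On day 7, d7_KO_420 (268 CPM) lay within the WT range and d7_WT_431 (228 CPM) within the KO range. Hk2 differed by -2.20 ± 0.30 (SE, log2, KO minus WT) on day 0, by -0.27 ± 0.33 on day 3 and by -1.25 ± 0.30 on day 7 (edgeR adjusted p = 0.0331, 0.802 and 0.291). The day 0 call was lost with a small intestine covariate (edgeR adjusted p = 0.119) and in 6 of 9 fits without 1 library, and DESeq2 called Hk2 on day 7 (adjusted p = 0.0135). The day 3 difference was -0.74 when the library labelled d3_KO_345 was left out. All day 0 libraries carry another name prefix than the libraries of days 3 and 7, so that a difference between day 0 and the DSS days cannot be told apart from one between library series.

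Ptprc, which encodes CD45, a phosphatase on the surface of all leukocytes, lies at chr1:138062861-138175708 in the files (GRCm38 per the submitters' processing notes). The 3 CD3 genes, whose proteins carry the signal of the T cell receptor, sit together on chromosome 9, with Cd3g at chr9:44969572-44980431, Cd3d at chr9:44981793-44987052 and Cd3e at chr9:44998743-45009590. Cd8a, the CD8 alpha chain, is at chr6:71373427-71379171, and Itgae is at chr11:73090583-73147446. The granzyme genes are Gzma at chr13:113093825-113100979 and Gzmb at chr14:56258856-56262260. Cd7, a surface protein of T and natural killer cells, is at chr11:121036747-121039418, and Ccl5, a chemokine that attracts other leukocytes, is at chr11:83525778-83530518. Counting ignored strand, so antisense partners can share reads: Itgae overlaps Gsg2, which holds 13773 counts against 11284 for Itgae over all libraries, and Cd7 overlaps Gm11775, with 2717 against 15218 counts.

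Upstream sequence is printed for the CD3 genes and the granzyme genes. In the correlations described below, Pearson's r was 0.87 to 0.93 among the CD3 genes and 0.90 between the granzyme genes. Between CD3 and granzyme genes it was 0.69 to 0.84, against a median of 0.81 over all pairs of the 10. RefSeq promoter windows (GRCm38.p6) were matched for 7 of the 10 genes, with no match for Itgae, Cd7 and Ccl5. Each sequence below is the 250 bases before the RefSeq start, 5′ to 3′ on the strand of the gene. Capitals mark matches to 3 short motifs, searched on both strands. The motif searched for RUNX factors, which are known for their part in CD8 T cells, was TGTGGT. The letters for the ETS family of factors were AGGAAG. Those for the GATA family, to which Gata3 belongs, were AGATAA. The windows are chr9:44980432-44980681 and chr9:45009612-45009861 on the minus strand, chr9:44981536-44981785 on the plus strand, and chr13:113100982-113101231 and chr14:56262335-56262584 on the minus strand.
Cd3g: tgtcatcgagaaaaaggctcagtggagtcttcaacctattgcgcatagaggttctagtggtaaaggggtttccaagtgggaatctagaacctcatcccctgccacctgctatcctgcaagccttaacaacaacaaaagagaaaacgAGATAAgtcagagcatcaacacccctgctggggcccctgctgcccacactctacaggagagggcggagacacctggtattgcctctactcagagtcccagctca
Cd3d: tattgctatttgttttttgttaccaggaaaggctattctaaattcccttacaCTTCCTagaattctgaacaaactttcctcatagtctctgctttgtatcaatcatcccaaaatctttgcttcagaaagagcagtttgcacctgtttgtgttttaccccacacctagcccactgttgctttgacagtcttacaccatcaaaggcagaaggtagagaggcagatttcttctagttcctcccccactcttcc
Cd3e: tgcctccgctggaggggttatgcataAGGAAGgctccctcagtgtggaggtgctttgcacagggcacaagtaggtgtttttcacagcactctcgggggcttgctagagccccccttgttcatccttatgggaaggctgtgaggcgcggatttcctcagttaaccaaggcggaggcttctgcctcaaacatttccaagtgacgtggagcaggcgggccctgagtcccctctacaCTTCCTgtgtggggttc
Gzma: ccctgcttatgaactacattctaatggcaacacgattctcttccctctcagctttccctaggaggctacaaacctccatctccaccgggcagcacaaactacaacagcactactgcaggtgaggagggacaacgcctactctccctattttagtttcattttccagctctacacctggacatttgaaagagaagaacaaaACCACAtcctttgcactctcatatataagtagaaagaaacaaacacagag
Gzmb: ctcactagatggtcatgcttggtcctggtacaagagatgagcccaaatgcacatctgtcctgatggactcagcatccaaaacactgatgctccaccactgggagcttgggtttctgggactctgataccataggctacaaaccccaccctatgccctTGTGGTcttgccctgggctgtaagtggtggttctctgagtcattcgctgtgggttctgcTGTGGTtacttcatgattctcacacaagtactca

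The starts of Cd3g and Cd3d point away from each other and lie 1355 bases apart, and those of Cd3d and Cd3e lie 27825 bases apart. TGTGGT or its complement stood in the windows of 2 of the 7 genes, Gzma and Gzmb, and in 14.05% of 32851 promoter windows of the same length. AGGAAG stood in those of 3, Ptprc, Cd3d and Cd3e, against 29.5% of all windows. AGATAA stood in those of 2, Ptprc and Cd3g, against 9.99%. Ptprc had 2 windows, so that the 7 genes had 8, and AGATAA stood in only 1 of those of Ptprc. The counts are of genes with a match in any window, whereas the percentages are of windows. The window of Cd8a held none of these letters. These are matches of letters only.

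**Figure D1:**
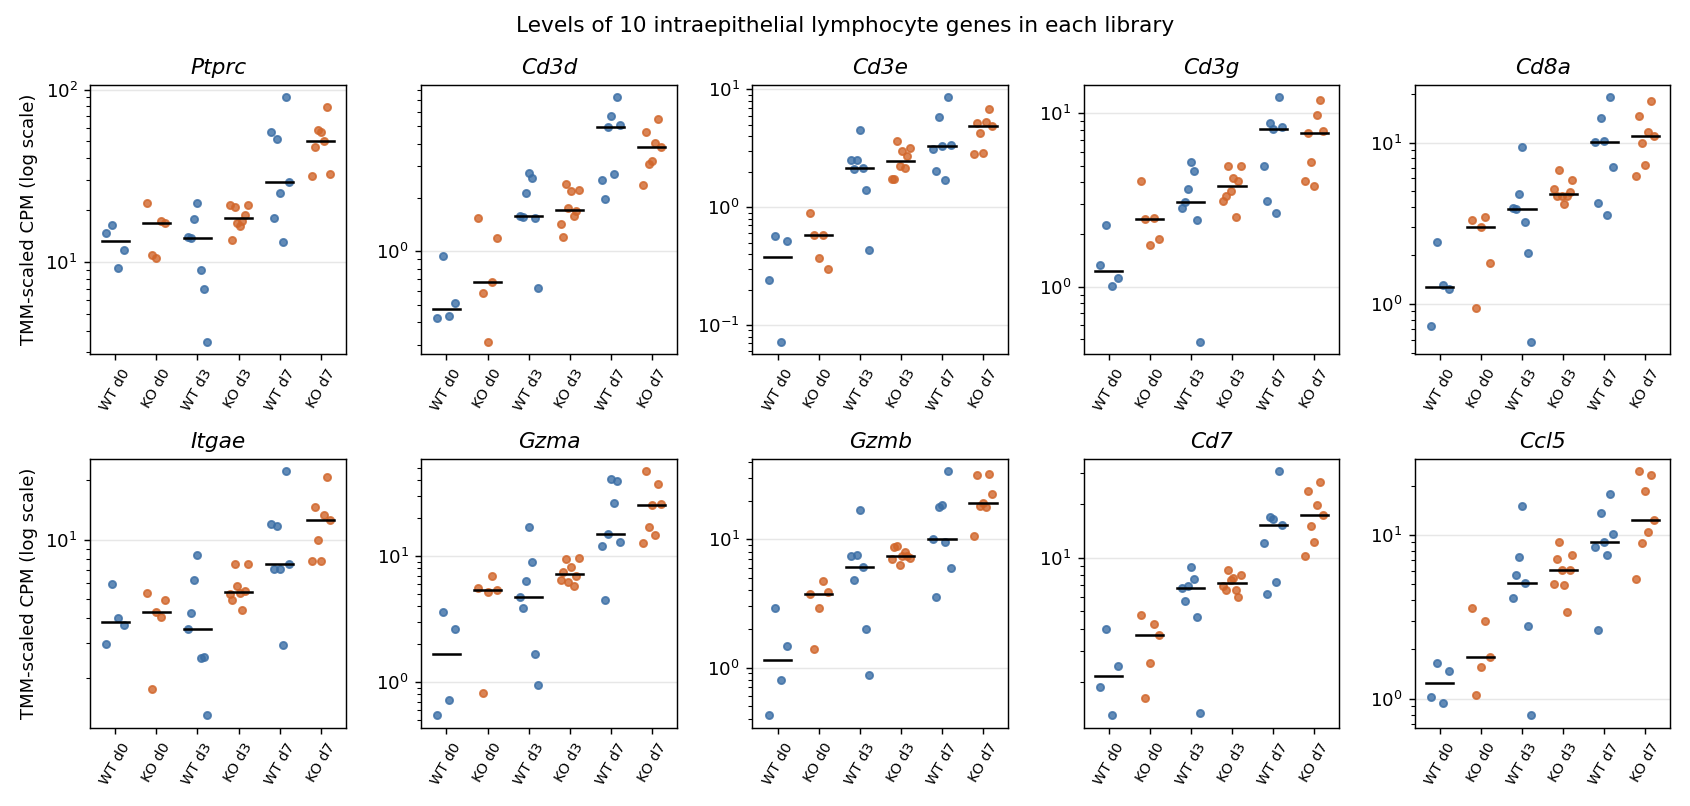
TMM-scaled CPM (log axis) of the 10 genes in each of 38 libraries, by genotype and day of DSS (WT blue, KO orange, d0 to d7 for days 0 to 7), with a line at each group's median. Day 7 medians lie above day 3 medians for every gene in both genotypes, and the WT day 3 libraries spread more widely than the KO day 3 libraries.

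All 10 lymphocyte genes rose between day 3 and day 7 of DSS in KO mice, by 0.81 to 1.74 on the log2 scale, with a median of 1.16 against -0.0067 over all 15568 genes tested (edgeR, adjusted p under 0.05 for each). The share of all genes called higher in that comparison was 10.5%, and the share called in either direction was 19.3% in each genotype. In WT mice, 5 of the 10 rose (Ptprc, Cd3d, Itgae, Gzma and Cd7), where 10.6% of all genes were called higher. The other 5 differed by 0.75 to 1.28 in the same direction without passing the test, and the median of the 10 was 1.26 against 0.013 over all 15541 genes. A further fit took the mean log2 CPM of 5 distal Hox genes, described below, as a covariate chosen after seeing the data. In it, 0 of the 10 were called in KO and 0 in WT mice, and all changes stayed above 0. The Hox genes themselves fell between these days, so this fit cannot separate the Hox score from the day. In bulk RNA of a cell preparation, more lymphocytes and more RNA per lymphocyte cannot be told apart.

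Gzma, a granzyme that cuts proteins in target cells, had the largest change in either genotype among the 10. In KO mice its lowest, median and highest levels were 5.77, 7.24 and 9.72 CPM on day 3 and 12.9, 25.5 and 47.7 CPM on day 7, so every day 7 library stood above every day 3 library. It rose by 1.74 ± 0.25 (SE, log2; edgeR adjusted p = 0.000164). In WT mice its levels were 0.946, 4.75 and 17.2 CPM on day 3 and 4.53, 15.05 and 41.1 CPM on day 7, and the groups overlapped. The WT rise was 1.79 ± 0.58 (edgeR adjusted p = 0.0393). Gzmb, the granzyme that starts caspase cleavage in target cells, was 6.27, 7.39 and 8.86 CPM on day 3 and 10.6, 19.2 and 32.3 CPM on day 7 in KO mice. The KO groups did not overlap, and Gzmb rose by 1.48 ± 0.19 (edgeR adjusted p = 6.90e-05). In WT mice Gzmb was 0.877, 6.08 and 16.9 CPM on day 3 and 3.57, 10.0 and 34.2 CPM on day 7. This difference of 1.12 ± 0.55 did not pass the test (edgeR adjusted p = 0.177).

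Estimates for the 3 CD3 chains were 0.81 to 1.04 in KO and 0.83 to 1.25 in WT mice. In KO mice Cd3e was 1.74, 2.48 and 3.68 CPM (lowest, median, highest) on day 3 and 2.82, 4.85 and 6.85 CPM on day 7, with overlapping groups. It rose by 0.81 ± 0.22, and Cd3g and Cd3d rose by 0.87 ± 0.24 and 1.04 ± 0.19 (edgeR adjusted p = 0.0146, 0.0185 and 0.00123). Among WT mice, Cd3d was 0.619, 1.57 and 2.74 CPM on day 3 and 1.95, 4.99 and 7.30 CPM on day 7, and rose by 1.25 ± 0.34 (edgeR adjusted p = 0.0175). Cd3g differed by 1.10 ± 0.42 and Cd3e by 0.83 ± 0.43 in WT mice, and neither passed (edgeR adjusted p = 0.0788 and 0.191). DESeq2 called Cd3g in WT mice (adjusted p = 0.0351). Cd8a, the chain shared by both forms of CD8, was 4.15, 4.80 and 6.71 CPM on day 3 and 6.18, 10.9 and 18.02 CPM on day 7 in KO mice. Only the lowest day 7 library fell within the day 3 range, and Cd8a rose by 1.10 ± 0.20 (edgeR adjusted p = 0.000917). The WT difference in Cd8a was 1.28 ± 0.47 (edgeR adjusted p = 0.0688), which DESeq2 called (adjusted p = 0.0245), so that DESeq2 called 7 of the 10 in WT mice.

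Ptprc was 13.4, 18.1 and 21.5 CPM on day 3 and 31.7, 50.6 and 79.2 CPM on day 7 in KO mice, with no overlap. In WT mice it was 3.46, 13.7 and 22.1 CPM and then 13.1, 29.2 and 90.4 CPM. The rises were 1.43 ± 0.17 in KO and 1.69 ± 0.44 in WT mice (edgeR adjusted p = 4.83e-05 and 0.0131). Itgae, the adhesion molecule of tissue-resident cells, was 4.40, 5.42 and 7.56 CPM on day 3 and 7.75, 12.5 and 20.6 CPM on day 7 in KO mice, again with no overlap. It rose by 1.05 ± 0.20 in KO and by 1.27 ± 0.42 in WT mice (edgeR adjusted p = 0.00140 and 0.0441). Cd7 rose by 1.27 ± 0.18 in KO mice, from 6.00 to 8.56 CPM on day 3 to 10.3 to 26.6 CPM on day 7, and by 1.32 ± 0.37 in WT mice (edgeR adjusted p = 0.000142 and 0.0219). Ccl5, the chemokine, was 3.39, 6.10 and 9.11 CPM on day 3 and 5.41, 12.3 and 24.6 CPM on day 7 in KO mice, with overlapping groups, and rose by 1.21 ± 0.29 (edgeR adjusted p = 0.00692). Its WT difference was the smallest of the 10 at 0.75 ± 0.48 (edgeR adjusted p = 0.308). Thus the groups of 5 genes, Ptprc, Itgae, Gzma, Gzmb and Cd7, were separate between the KO days, where 3.0% of all genes tested were separate and higher. The WT groups of all 10 overlapped, with 2.95% of all genes separate and higher.

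The larger number of calls in KO mice is not a tested difference in the change itself. The interaction of genotype and day was between -0.24 and 0.49 for the 10 genes, KO change minus WT change on the log2 scale. The edgeR test called none of them and 0 of 16371 genes, with 440 at an unadjusted p under 0.05 and 0 called by DESeq2. The calls in KO mice numbered 10 in each fit that left out 1 library, including the fit without the library labelled d3_KO_345. In WT mice they numbered 2 without d7_WT_419, 3 without d3_WT_346, d3_WT_348, d3_WT_486 or d3_WT_487, and 6 without d3_WT_353 or d7_WT_393. The WT call of Itgae was lost in 9 and that of Gzma in 8 of the 14 fits without 1 library, and that of Cd7 in 1 (edgeR adjusted p up to 0.108, 0.0805 and 0.0532).

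**Figure D2:**
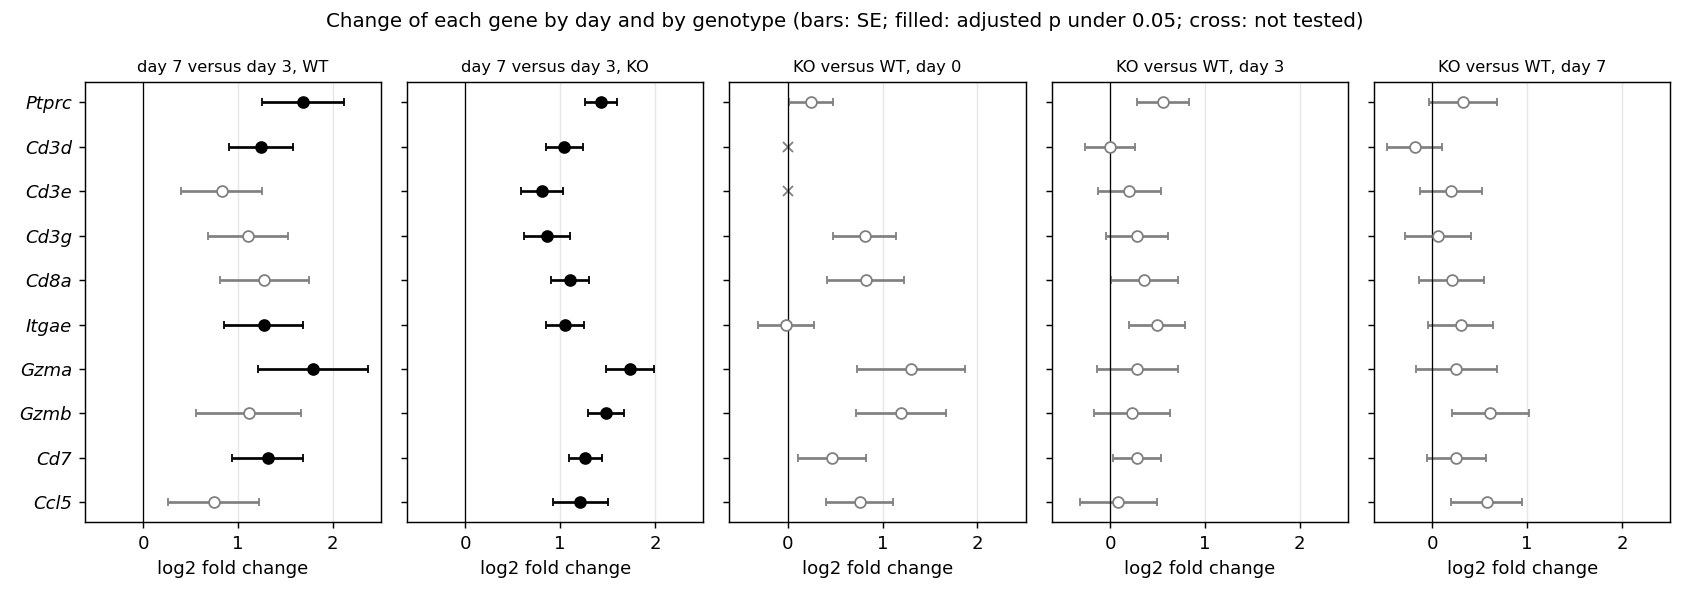
Log2 fold change of each gene with its standard error (edgeR), for day 7 against day 3 in WT and KO mice and for KO against WT on each day. Filled points passed an adjusted p of 0.05, open points did not, and a cross marks a gene removed by the filter on low counts: the 10 KO points of day 7 against day 3 are filled, 5 of the WT points are, and none of the genotype points is.

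Deletion of Hk2 in the epithelium was not accompanied by a called change in any of these genes on any day. Of the 8 genes tested on day 0, 0 were called (0.0335% of 14944 genes were), of the 10 on day 3, 0 (0.00647% of 15461), and of the 10 on day 7, 0 (0.00642% of 15584). At an unadjusted p under 0.05, 3 of the 8 and 1563 of all genes differed on day 0, 0 of the 10 and 1218 genes on day 3, and 0 of the 10 and 2017 genes on day 7. DESeq2, under the same filter on low counts, called 0 of these 8, 10 and 10 genes, and 177, 2 and 83 genes in all.

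The point estimates mostly lay above 0, KO minus WT. On day 0 they did for 7 of the 8, with a median of 0.79 against -0.0030 for all genes. On day 3 they did for 9 of the 10 (median 0.28) and on day 7 for 9 of the 10 (median 0.25). The T cell receptor chains were above 0 in 7 of 7, 8 of 8 and 3 of 8 on these days (medians 0.59, 0.19 and -0.13). Macrophage markers were above 0 in 1 of 7, 8 of 8 and 8 of 9 (medians -0.34, 0.75 and 0.72). None of these was called (edgeR), and their part in the differences of the 10 genes was not tested. Gzma on day 0 was 0.545, 0.725, 2.63 and 3.59 CPM in the WT libraries and 0.821, 5.24, 5.36, 5.603 and 7.02 CPM in the KO libraries. Thus 4 of 5 KO libraries stood above all WT libraries, and the difference was 1.30 ± 0.57 (edgeR adjusted p = 0.463). Gzmb was 0.424, 0.797, 1.48 and 2.93 CPM in WT and 1.41, 2.93, 3.76, 3.87 and 4.71 CPM in KO libraries of day 0, a difference of 1.198 ± 0.47 (edgeR adjusted p = 0.423). Cd3g was 1.01, 1.13, 1.33 and 2.27 CPM in WT and 1.75, 1.89, 2.46, 2.50 and 4.08 CPM in KO libraries, a difference of 0.81 ± 0.33 (edgeR adjusted p = 0.432). Itgae, whose protein is the anchor to the epithelium, was at -0.02 ± 0.29 (edgeR adjusted p = 0.987). Cd3d and Cd3e did not pass the filter on low counts on day 0. On that day the WT libraries held 12.7 to 44.9 M and the KO libraries 10.5 to 17.5 M counts.

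On day 3 the largest difference was that of Ptprc, 0.56 ± 0.28 (edgeR adjusted p = 0.623), and the smallest that of Cd3d, -0.00068 ± 0.26. Without the library labelled d3_KO_345, which had the highest Ptprc of its group, the Ptprc difference was 0.53. That library also had the highest neutrophil and macrophage sums of its group, 198 and 157 CPM. Leaving out d3_WT_353 or d3_WT_487 moved the Gzma difference from 0.29 to 0.79 or 0.091, with 0 of the 10 genes called either way. On day 7 the largest differences were those of Gzmb, 0.61 ± 0.40, and Ccl5, 0.57 ± 0.38 (edgeR adjusted p = 0.507 and 0.504), and Cd3d was at -0.19 ± 0.29. Standard errors over the 10 genes were 0.26 to 0.43 on day 3 and 0.29 to 0.43 on day 7, as large as or larger than most of the estimates, so that a difference of this size was not detectable with these libraries.

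Against day 0, all 10 genes were called higher on day 7 in both genotypes, by 1.25 to 3.43 in WT and 1.47 to 3.02 in KO mice (edgeR). The WT call of Itgae on day 7 was lost in 3 of 11 fits without 1 library (edgeR adjusted p up to 0.0719). In WT mice 27.8% and in KO mice 27.3% of all genes were called higher, and the limit on library series given above applies. These comparisons share their day 7 libraries with those above. In WT mice 6 were called higher on day 3 than on day 0 (Cd3d, Cd3e, Cd8a, Gzmb, Cd7 and Ccl5), where 20.4% of all genes were. In KO mice these 6 and Cd3g were, where 22.6% of all genes were. The KO call of Cd3g was lost with a mean CPM of at least 1 (edgeR adjusted p = 0.0579) and in 9 of 13 fits without 1 library. The WT call of Cd8a was lost with DESeq2 size factors (edgeR adjusted p = 0.0565), with a mean CPM of at least 1 (0.0724) and in 7 of 11 fits without 1 library, and those of Gzmb and Cd7 in 3 of 11 each. Cd3e, the signalling chain, showed the largest difference, from 0.0725, 0.242, 0.513 and 0.567 CPM in the WT libraries of day 0 to 0.430, 2.14 and 4.55 CPM (lowest, median, highest) on day 3. It was higher by 2.52 ± 0.58 in WT and by 2.21 ± 0.30 in KO mice (edgeR adjusted p = 0.00315 and 2.09e-05). On day 0, Cd3e had only 1 to 25 counts in the WT and 3 to 14 in the KO libraries. The WT library with 1 count, d0_WT_43, lay below the floor of 3 counts. The size of the Cd3e differences from day 0, on day 3 and on day 7, is therefore uncertain. Cd3d and Cd3e did not pass the filter where the day 0 groups were compared with each other. Ptprc was not called, at -0.09 ± 0.38 in WT and 0.24 ± 0.17 in KO mice, and neither was Itgae, at -0.03 ± 0.41 and 0.50 ± 0.21 (edgeR adjusted p = 0.867, 0.276, 0.965 and 0.0675). DESeq2 called Itgae in KO mice (adjusted p = 0.0434). Without d0_WT_31, d0_WT_43 or d0_WT_46, 3 of the 10 were called higher in WT mice on day 3. The interaction of genotype with day 7 against day 0 was between -1.004 and 0.35, and 0 of the 10 were called (edgeR; 0.00531% of 18830 genes were).

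Per kilobase of exon, which allows genes to be compared, Gzma had the highest mean level in each of the 6 groups, from 2.13 CPM per kb in WT day 0 to 29.5 in KO day 7, but its lead exceeded the larger SD of the pair in KO day 3 only. In WT day 0 it led Cd7 by 0.0104 CPM per kb, and without d0_WT_41 or d0_WT_46 Cd7 came first, at 1.66 against 1.48 and 2.10 against 1.84 CPM per kb. Cd7, Ccl5, Gzmb and Cd3g took the next 4 places in every group in varying order. Cd8a, Cd3d, Cd3e, Itgae and Ptprc took the last 5, and Cd3e was lowest on day 0 at 0.243 CPM per kb in WT and 0.380 in KO mice. On day 7 the lowest were Itgae, at 2.20 and 2.70 CPM per kb, and Ptprc, at 2.22 and 2.77. In KO day 7 the order was Gzma 29.5, Cd7 15.8, Gzmb 15.4, Ccl5 15.4, Cd3g 6.74, Cd8a 3.59, Cd3e 3.20, Cd3d 2.88, Ptprc 2.77 and Itgae 2.70 CPM per kb. Of the 9 pairs of neighbours in that order, 2 differed by more than the larger SD of the pair: Ccl5 above Cd3g, and Cd3g above Cd8a. In WT day 3 and WT day 7 no neighbours did, and in KO day 3 5 pairs did.

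Ratios of 2 genes within a library do not depend on its scaling. The ratio of Cd3e to Ptprc sets the T cell signal against all leukocytes. It was -2.51 ± 0.33 (SD, log2 of counts, n = 7) in WT day 3 and -3.25 ± 0.44 (n = 7) in WT day 7. The fall of 0.74 passed the exact two-sided permutation test (p = 0.00175, adjusted p = 0.0131 over 15 tests). In KO mice it was -2.86 ± 0.36 (n = 8) on day 3 and -3.45 ± 0.49 (n = 7) on day 7. This difference of -0.60 did not pass after adjustment (exact permutation p = 0.0176, adjusted p = 0.0878). Ptprc is also made by the neutrophils and macrophages described below.

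The annotated exons of Cd8b1, the CD8 beta chain, span 1418 bases and those of Cd8a 3130. The ratio of Cd8b1 to Cd8a was taken from counts, not scaled by length, and was low in every DSS group. Turned back from the group's mean log2 ratio, with 1 added to each count, it was 0.0401 in WT day 3 and 0.0617 in KO day 3. The same value was 0.0243 in WT day 7 and 0.0291 in KO day 7. In KO mice the log2 ratio was -4.02 ± 0.44 (SD, n = 8) on day 3 and -5.10 ± 0.38 (n = 7) on day 7. The difference of -1.08 passed (exact permutation p = 0.000622, adjusted p = 0.00932). Cd8b1 itself differed by 0.0032 ± 0.29 in KO mice while Cd8a rose (edgeR adjusted p = 0.996 for Cd8b1). In WT mice the ratio differed by -0.72 between the days without passing (exact permutation p = 0.0536, adjusted p = 0.148). Cd8b1 counts were few, down to 1 in WT day 3, 3 in WT day 7, 6 in KO day 3 and 7 in KO day 7. The ratio of Trdc, the constant region of the δ receptor chain, to Trac, that of the α chain, was taken from counts. It was 0.43 ± 0.50 in WT day 3, 0.44 ± 0.36 in KO day 3, 0.46 ± 0.55 in WT day 7 and 0.24 ± 0.38 in KO day 7 (SD, log2), and no comparison of it passed. The annotated exons of Trdc span 3865 bases and those of Trac 935, so this log2 ratio above 0 does not by itself show an excess of δ chain RNA. Per kilobase of exon, the mean level of Trdc was 0.323, 0.325, 0.299 and 0.288 times that of Trac in the same 4 groups. None of the 9 tests of KO against WT passed, and the smallest p was that of Cd8b1 to Cd8a on day 3 (difference 0.62, exact permutation p = 0.0311, adjusted p = 0.117).

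**Figure D3:**
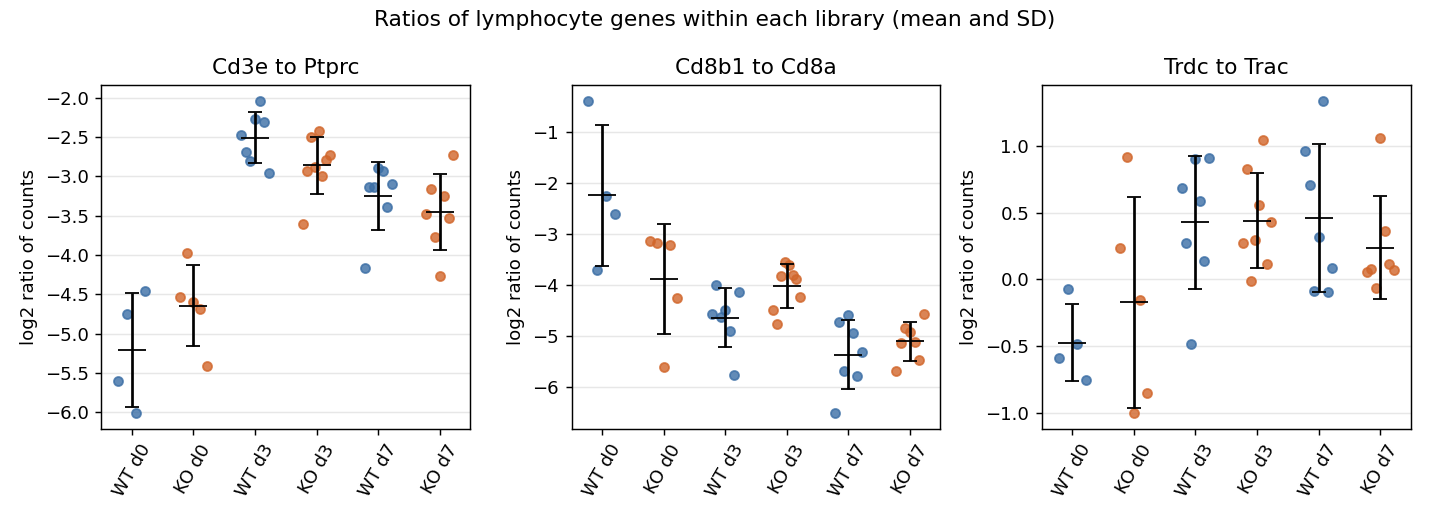
Log2 ratios of counts within each library for Cd3e to Ptprc, Cd8b1 to Cd8a and Trdc to Trac, by group, with the mean and SD (WT blue, KO orange). The first ratio falls from -2.51 to -3.25 in WT and the second from -4.02 to -5.10 in KO mice between days 3 and 7, and the third has means of 0.24 to 0.46 in the DSS groups.

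Other genes found in T cells and related lymphocytes were taken from fixed lists. That their RNA came from these cells alone was not tested. Of the 8 T cell receptor chains, 4 rose between day 3 and day 7 in WT and 8 in KO mice (edgeR). Trbc2, a constant region of the β chain, rose by 1.47 ± 0.34 in WT and 1.08 ± 0.22 in KO mice. Trbc1 and Trbc2 are near-identical copies, as are some of the Tcrg-C genes, so the separate counts of such copies are uncertain. Of 14 T cell signalling genes, 3 of the 12 tested rose in WT and 9 of the 13 tested in KO mice. Lcp2, the adaptor SLP-76, rose by 2.14 ± 0.48 and 1.82 ± 0.24, and Cd4, the co-receptor of helper T cells, by 1.82 ± 0.44 and 1.68 ± 0.32. Of 18 cytotoxic and natural killer genes, 9 of 15 tested rose in WT and 11 of 16 in KO mice. The largest changes there were those of Tyrobp (3.30 ± 0.41 and 2.66 ± 0.44) and Fcer1g (2.91 ± 0.38 and 2.60 ± 0.38), adaptors that myeloid cells also express. Nkg7, a granule protein of killer cells, rose by 1.197 ± 0.37 and 1.06 ± 0.22.

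Of 15 homing and residence genes, 8 of 14 tested rose in WT and 11 of 14 in KO mice. Ccr7, the lymph node homing receptor, rose by 3.35 ± 0.51 in WT and 2.11 ± 0.31 in KO mice. Which leukocytes carried Ccr7 was not tested, and dendritic cell markers, given below, were also higher on day 7. Itgb7, the partner chain of integrin αE, rose by 1.26 ± 0.40 and 1.57 ± 0.22. Cxcr6, a receptor of resident T cells, rose by 0.91 ± 0.26 in KO mice and was at 1.02 ± 0.39 in WT mice without passing (edgeR adjusted p = 0.0214 and 0.0760). Of 14 lymphocyte transcription factors, 12 were tested in each genotype. Gata3 rose in both (2.20 ± 0.48 and 1.59 ± 0.27), Ikzf3 and Runx3 rose in KO mice, and Bcl11b fell by 0.65 in WT mice. Runx3, a factor of CD8 T cells, was at 1.41 ± 0.20 in KO and 1.42 ± 0.52 in WT mice (edgeR adjusted p = 0.000146 and 0.0691).

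Genes by which the epithelium addresses these lymphocytes also changed. Of 12, 4 rose and 1 fell in WT mice and 6 rose and 2 fell in KO mice. Btnl6 and Btnl4, butyrophilin-like proteins, rose by 0.92 ± 0.13 and 0.73 ± 0.15 in WT and by 0.90 ± 0.15 and 0.58 ± 0.10 in KO mice. Btnl1, which helps to select γδ cells in the gut, rose by 0.63 ± 0.13 in KO mice and was at 0.39 ± 0.18 in WT mice (edgeR adjusted p = 0.00202 and 0.143). H2-T3, the TL antigen that binds CD8 alpha pairs, rose by 0.75 ± 0.18 and 1.07 ± 0.14. Cxadr, the epithelial ligand of the lymphocyte protein JAML, fell by 0.25 in WT and by 0.28 in KO mice. Il15, a survival cytokine of intraepithelial lymphocytes, was at 0.08 ± 0.17 and 0.03 ± 0.14, and Cdh1, which encodes E-cadherin, at -0.05 ± 0.09 and -0.01 ± 0.09, and neither passed.

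Markers of other cells moved with the day. Between days 3 and 7, all 8 neutrophil and all 9 macrophage markers rose in both genotypes (edgeR), and their summed levels went from 9.57 to 46.4 up to 196 to 1339 CPM (neutrophils, WT) and from 43.1 to 51.8 up to 91.4 to 395 CPM (macrophages, WT). In KO mice the neutrophil sum went from 16.2 to 198 up to 154 to 1974 CPM and the macrophage sum from 37.9 to 157 up to 99.95 to 556 CPM. Of the B and plasma cell markers tested, 6 of 6 rose in WT and 3 of 6 in KO mice. Of the mast cell markers tested, 2 of 3 rose in WT and 3 of 4 in KO mice, with Mcpt1 and Mcpt2, mucosal mast cell proteases, among them in both. Kit, the receptor for stem cell factor, fell in both, by 0.74 in WT and 0.61 in KO mice (edgeR adjusted p = 0.0103 and 0.0370). None of the 7 stromal and vessel genes tested was called in either genotype. The 5 distal Hox genes (Hoxb13, Hoxd10, Hoxd11, Hoxd12 and Hoxd13), which mark position along the gut, fell: their sum went from 95.0 to 382 down to 12.5 to 123 CPM in WT and from 76.0 to 316 down to 3.89 to 59.9 CPM in KO mice. With the Hox score as a covariate, all calls of the 10 lymphocyte genes ended. Their changes were then 0.26 to 1.86 in WT and 0.41 to 1.13 in KO mice. The genes called in all fell to 916 in WT and to 3 in KO mice. The Hox sums of the KO days did not overlap, and those of the WT days overlapped only between 95.0 and 123 CPM. A fit with both therefore cannot well separate the Hox score from the day, and a part of gut position in the rise was not tested. The part of other leukocytes in the rise of the 10 genes was not tested. Of the 6 epithelial genes, 0 were called in WT mice and Krt18 alone fell in KO mice.

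**Figure D4:**
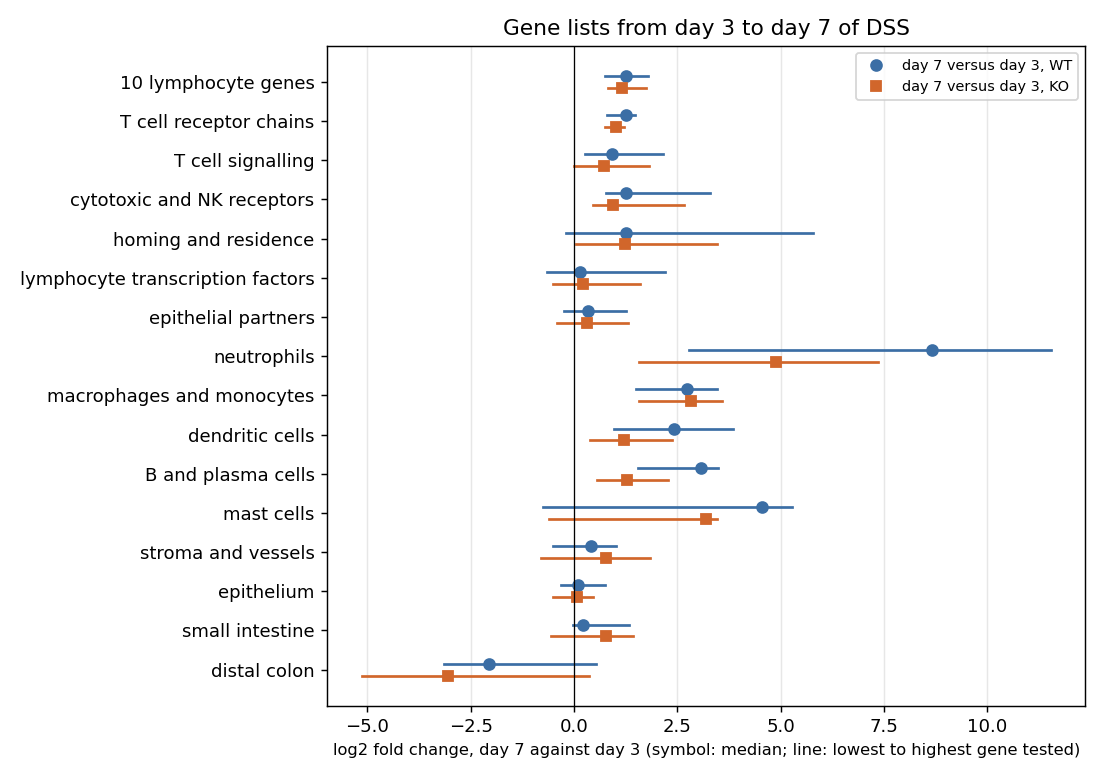
Log2 fold change from day 3 to day 7 for the 10 lymphocyte genes and the gene lists, as the median (symbol) and the range over the genes tested (line), in WT (blue circles) and KO mice (orange squares). The 10 lymphocyte genes have medians of 1.26 and 1.16, the macrophage list 2.72 and 2.83, the neutrophil list 8.67 and 4.88, and the distal colon list -2.05 and -3.04.

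The spread of the 10 genes differed from group to group. The WT day 3 group spread most: the highest library exceeded the lowest by 4.42 to 19.3 times, depending on the gene, with a median of 10.7. In KO day 3 the same quotient was 1.41 to 2.69, with a median of 1.70, and the lowest place fell to 5 different libraries, depending on the gene. The library labelled d3_KO_345 was highest there for Ptprc (21.5 CPM) but next to lowest for Cd3d (1.41 CPM) and Cd3e (1.75 CPM). It was 3.73 to 9.57 in WT day 7 and 2.35 to 4.55 in KO day 7. The same 2 libraries held both ends in WT day 3, since d3_WT_487 was lowest and d3_WT_353 highest in all 10 genes. Their sums over the 10 were 10.8 and 110 CPM, while their macrophage sums were 46.5 and 44.6 CPM and their epithelial sums 8544 and 7247 CPM. The total counts of these libraries were 50.0 and 41.2 M. On day 7, d7_WT_419 was highest in 9 of the 10 genes of WT mice and d7_KO_422 in 8 of the 10 of KO mice, whereas d7_KO_366 was lowest in 9. The library d7_WT_419 also had the highest neutrophil and B cell sums of its group, 1339 and 61.8 CPM, a macrophage sum of 394 CPM and the lowest Hox sum, 12.5 CPM. The library d7_KO_422 had the lowest Hox sum of its group, 3.89 CPM. The library d7_WT_386 had the lowest neutrophil and macrophage sums of its group, 196 and 91.4 CPM, and a lymphocyte gene sum of 145 CPM, above the group's median of 132 CPM. The part of these other markers in the lymphocyte gene levels was not tested. The difference in spread between the groups was not tested.

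Correlations of log2 CPM over the 29 libraries of days 3 and 7, after the mean of each group was removed, describe how far the 10 genes went up and down together. Over the 45 pairs Pearson's r ranged from 0.51 (Itgae with Gzma) to 0.95 (Cd3g with Cd7), with a median of 0.81. Spearman's rho was 0.33 to 0.93, with a median of 0.73. Without d3_WT_487 and d3_WT_353, r was 0.27 to 0.92 with a median of 0.73. Within single groups, r was 0.76 to 0.99 in WT day 3 (median 0.93, 7 libraries), -0.19 to 0.96 in KO day 3 (median 0.59, 8 libraries), 0.0998 to 0.97 in WT day 7 (median 0.79, 7 libraries) and 0.35 to 0.99 in KO day 7 (median 0.81, 7 libraries). In KO day 3, 2 of the 45 pairs were below 0. Gzma stood closest to Gzmb (r = 0.90) and Ptprc to Cd8a and Itgae (r = 0.89 for both). All pairs share the depth and scaling of their library. The 8 genes most like the mean of the 10, among 12846 genes, were Nkg7 (r = 0.95), Gimap4 (0.95), Tcrg-C4 (0.94), Zap70 (0.94), Gimap7 (0.94), Tcrg-C1 (0.94), Adgrg5 (0.94) and Acap1 (0.93). Zap70 is the kinase that binds the CD3 chains, and Gimap4 and Gimap7 are GTPases of lymphocytes.

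**Figure D5:**
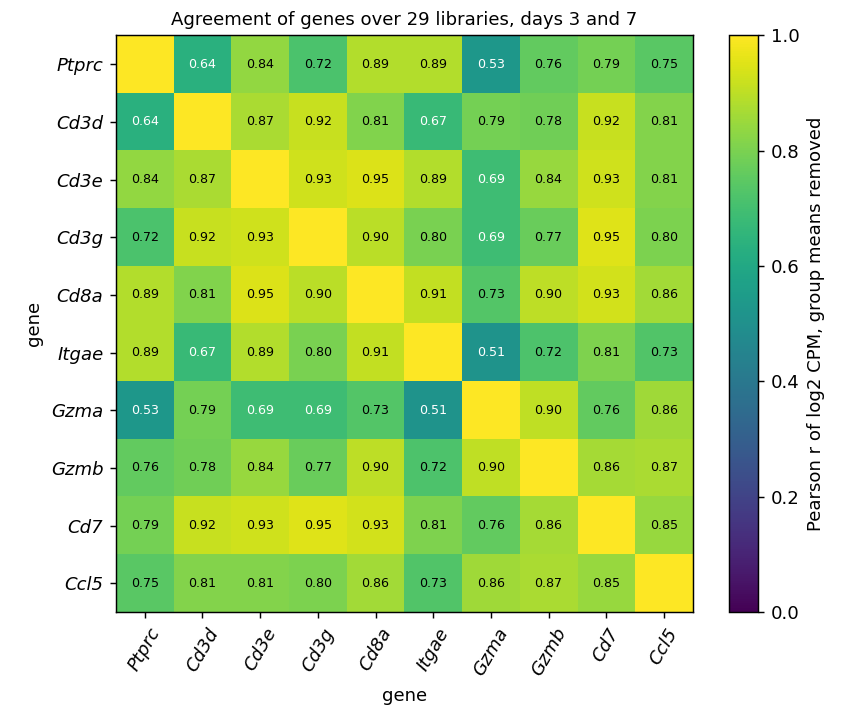
Pearson's r between each pair of the 10 genes over 29 libraries of days 3 and 7, on log2 CPM with the group means removed (colour and number). All 45 values are above 0, from 0.51 for Itgae with Gzma to 0.95 for Cd3g with Cd7.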

How the data were processed

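RNA was measured in isolated intestinal epithelial cells with a stranded mRNA kit and paired reads, per the labels' protocols. The deposited values are raw counts per gene, 1 file for each of 2 lanes of a library, made with featureCounts 1.6.2 with strand ignored, per the file headers. The submitters' processing notes name Trim Galore, STAR, featureCounts 1.5.2 and GRCm38. The lanes of each of the 38 libraries were summed here. Counts ignoring strand can mix a gene with its antisense partner, and near-identical receptor genes can lose or share reads.

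Groups came from the labels. Whether the animals of a group came from separate litters or cages is not given, and p-values measure the spread between these libraries. Tests across genes used the edgeR 4.0.16 quasi-likelihood test (R 4.3.3) with TMM scaling and filterByExpr, on the compared groups alone, with Benjamini-Hochberg adjustment over all genes tested and a threshold of 0.05 for a call. Log2 CPM used a prior count of 2. Ratios used a pseudocount of 1 and exact two-sided permutation tests (scipy 1.17.1, Python 3.11.15). The procedure was tested on simulated data. Floors were 3 counts. Alternatives were DESeq2 1.42.0 size factors and its Wald test, other filters, lane 1 alone, another pseudocount, a small intestine covariate and leaving out each library. Genes were named by membership of the 10, by smallest p or defining role within a list, and by likeness to the mean of the 10 among genes with a mean CPM of at least 1. A gene of the homing and residence list is in its counts but is not reported here by name. The members, lists and tests were chosen with earlier results of these data known.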

Additional observations from a re-analysis of the deposited data

Results flagged for a closer look

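Of 78 sets of values (10 genes and 3 ratios in 6 groups), 7 had 1 library set apart from the rest of its group by Dixon's criterion, which chance alone does in about 1 in 20 sets. In WT day 3, d3_WT_487 was the low library for Cd3d (0.619 CPM), Cd3g (0.482 CPM) and Cd7 (1.34 CPM). In KO day 0, d0_KO_32 was the low library for Itgae (1.76 CPM) and Gzma (0.821 CPM). That library also had the fewest genes with a count above 0 in its group, 20100. Its distal Hox sum was the lowest of the group, 45.4 CPM, and its sum of 9 small intestine genes the highest, 524 CPM. The part of these traits in its low values was not tested. The log2 ratio of Cd3e to Ptprc was lowest in d7_WT_356 at -4.17, a library with a neutrophil sum of 1321 CPM and a macrophage sum of 395 CPM. The log2 ratio of Trdc to Trac was highest in d7_KO_420 at 1.06. The 3 values of d3_WT_487, and the 2 of d0_KO_32, come from 1 library each and are not independent.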

How the results depend on the processing

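The count of the 10 genes called was 0 for KO against WT on each day under every alternative listed above and every fit without 1 library. It was 10 for day 7 against day 3 in KO mice under these, and 7 with DESeq2 against 5 in WT mice. No paired analysis was possible because the groups share no animal numbers. With the distal Hox score as a covariate, chosen after seeing the data, 0 of the 10 were called in WT and 0 in KO mice, with 916 and 3 genes in all. The Hox score moved with the day, so this fit cannot well separate them. In WT mice, leaving out 1 library gave 2 to 6 of the 10 for day 7 against day 3. It gave 3 to 8 for day 3 against day 0 and 9 to 10 for day 7 against day 0. The genes called in all for KO against WT were 177 (DESeq2), 52 (no filter) and 0 (small intestine covariate) on day 0, 2 (DESeq2) and 0 (mean CPM of at least 1) on day 3, and 83, 2 and 0 (DESeq2, no filter, mean CPM of at least 1) on day 7. Without 1 library they were 0 to 37, 0 to 1 and 1 to 2. For the interaction of day 7 with day 0 they were 174 with DESeq2 and 0 to 279 without 1 library. Signs turned for values near 0: Cd3d, KO against WT on day 3 (0.00085 with DESeq2, 0.0029 with a mean CPM of at least 1, -0.16 to 0.13 without 1 library), Ccl5 on day 3 (-0.11 to 0.52), Cd3g on day 7 (-0.11 to 0.26), Itgae on day 0 (-0.14 to 0.20), and for day 3 against day 0 in WT mice Itgae (0.035 with no filter, -0.31 to 0.22) and Ptprc (-0.30 to 0.065). Without 1 library, Cd3e to Ptprc between days in KO mice was -0.72 to -0.46, with adjusted p on both sides of 0.05, as for Cd8b1 to Cd8a on day 3 (0.43 to 0.73). Trdc to Trac was -0.26 and -0.074 for KO against WT on days 0 and 3 in lane 1 alone, -0.14 to 0.091 on day 3 and -0.12 to 0.12 between days in WT mice without 1 library. The cause was not tested. Cd3d and Cd3e fell below the filter on day 0, where libraries were shallowest.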
